A study of Drosophila melanogaster with 12 samples.

Results

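The adult male transcriptome of the control line was described from the 3 input libraries of *w1118* flies, the strain against which the study set its *Mettl16* mutants. A gene was taken if its FPKM averaged 1 or more over these libraries, which gave 12593 of the 21076 annotated features in the gene table (59.8%). FPKM, the number of sequenced fragments per kilobase of transcript scaled to the mapped total of the library, is a level that allows for transcript length. The gene value need not equal the sum over a gene's transcripts, so genes with many transcripts are compared with caution. The series holds 12 samples, of which these 3 are the *w1118* input RNA, the fragmented poly(A) RNA that was sequenced without capture by the m6A antibody. Each library was made from the whole bodies of about 50 pooled adult males, so a tissue is seen only through its share of the body's RNA. The line carries a mutation of the *white* gene, and its age was not given in the sources used here. With 1 group and no second one beside it, values are given as a description with the spread over 3 libraries, and no test was run.

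A male fly is built largely of flight muscle, fat body, gut, nervous system and cuticle. Its reproductive tract adds the testis, in which germ cells divide, grow as spermatocytes and elongate into sperm, the paired accessory glands, which secrete the seminal fluid proteins, and the ejaculatory duct and bulb. Males have an X and a Y chromosome. The dosage compensation complex, which holds the *roX* RNAs, raises transcription of their X chromosome, and sex is set by a chain of alternative splicing that runs through *Sxl*, *tra* and *dsx*. In whole bodies, fewer cells of a type and less RNA per cell cannot be told apart.

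The depth came to 6.13, 6.47 and 6.48 aligned gigabases in replicates 1, 2 and 3, and between 17763 and 17956 features had a value above 0. A level of 1 FPKM corresponded to a mean coverage of 6.13 to 6.48 reads per base. Across the 12593 genes, the coefficient of variation between libraries had a median of 7.36%, with quartiles of 4.54% and 11.7%. It was 12.5% for genes from 1 to under 3 FPKM and 6.11% for those from 10 to under 30 FPKM. Replicate 1 stood apart from the others. Over pairs of libraries, the median coefficient of variation was 4.75% without replicate 1, 6.65% without replicate 2 and 6.93% without replicate 3. The gene groups in which replicate 1 differed are given with their values below. The threshold fell in a continuous range, where *lncRNA:CR43840*, at 1.0005 FPKM, was just inside and *RNaseMRP:RNA*, at 0.99997 FPKM, just outside.

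Most genes were present at modest levels and a few at very high ones. The median level was 9.45 FPKM, with quartiles of 3.91 and 24.3 FPKM. From 1 to under 10 FPKM lay 2368 and 4163 genes, below and above 3 FPKM, and together with 3460 genes from 10 to under 30 FPKM they made up most of the list. Only 43 genes (0.341%) reached 1000 FPKM, and they held 21.6% ± 1.02 of the summed FPKM (SD, n = 3). The 100 highest genes held 28.6%, 30.7% and 30.8% of the summed FPKM in replicates 1, 2 and 3, and the 1000 highest held 64.6%, 66.6% and 66.8%. High genes were short. The leading transcript, the one with the largest share of its gene's isoform FPKM, had a median length of 691 bases and 2 exons among the 30 highest genes, against 1605 bases and 3 exons over all 12593. By symbol, 10986 of the 12593 genes (87.2%) matched a protein-coding gene in the RefSeq annotation, and 745 matched none. Genes known only by a CG number were 5226 (41.5%), with a median level of 10.5 FPKM, against 8.71 FPKM for the remaining features. The remaining features include 561 long non-coding RNAs and 171 transposable element features, with medians of 2.67 and 1.96 FPKM. The 11645 genes outside such classes, CG numbers included, had a median of 10.4 FPKM. The 2 medians therefore do not compare CG genes with named protein-coding genes.

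Of the 30 highest genes, 20 were on one of the tissue or function lists. Of these, 5 were encoded by the mitochondrial genome, 5 were on the accessory gland list, 4 on the muscle list, 2 each on the ejaculatory duct and bulb list and the nuclear oxidative phosphorylation list, and 1 each on the ribosomal protein and oenocyte lists, and the other 10 genes were on none. The highest was *mt:CoIII*, a subunit of cytochrome c oxidase, with 8620, 11700 and 9856 FPKM in replicates 1, 2 and 3. It was followed by *mt:CoI*, with 6010, 8107 and 6930 FPKM. Both were lowest in replicate 1 and highest in replicate 2. *Mst57Db*, a male-specific accessory gland transcript of 195 bases at 3R:25830720-25830914, had 5854, 4704 and 5861 FPKM. It was the highest nuclear gene, and its range overlapped that of *Nplp3*, a neuropeptide-like precursor gene, which had 4928, 4906 and 4933 FPKM. *Nplp2*, another gene of that name, had 2790, 2932 and 2737 FPKM. *Mlc2*, the regulatory light chain of muscle myosin, had 3276, 3581 and 3473 FPKM, and *Mlc1*, a further myosin light chain, had 2075, 2217 and 2254 FPKM. *Scp1*, which encodes a sarcoplasmic calcium-binding protein, had 3275, 3008 and 2811 FPKM. *sesB*, the mitochondrial carrier that exchanges ADP and ATP, had 1829, 2447 and 2430 FPKM. *Cyp4g1*, the oenocyte cytochrome P450 of cuticular hydrocarbon synthesis, had 1514, 1880 and 1441 FPKM. The near-identical neighbours *Met75Cb* and *Met75Ca* averaged 3268 ± 422 and 3206 ± 365 FPKM (SD, n = 3), and reads that fit both cannot be assigned to either with certainty. Next to each other in this order, many genes differed by less than their spread, such as *Act79B* (2310 ± 51.1), *ATPsynC* (2265 ± 294), *sesB* (2235 ± 352) and *Act88F* (2226 ± 418 FPKM).

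**Figure D1:**
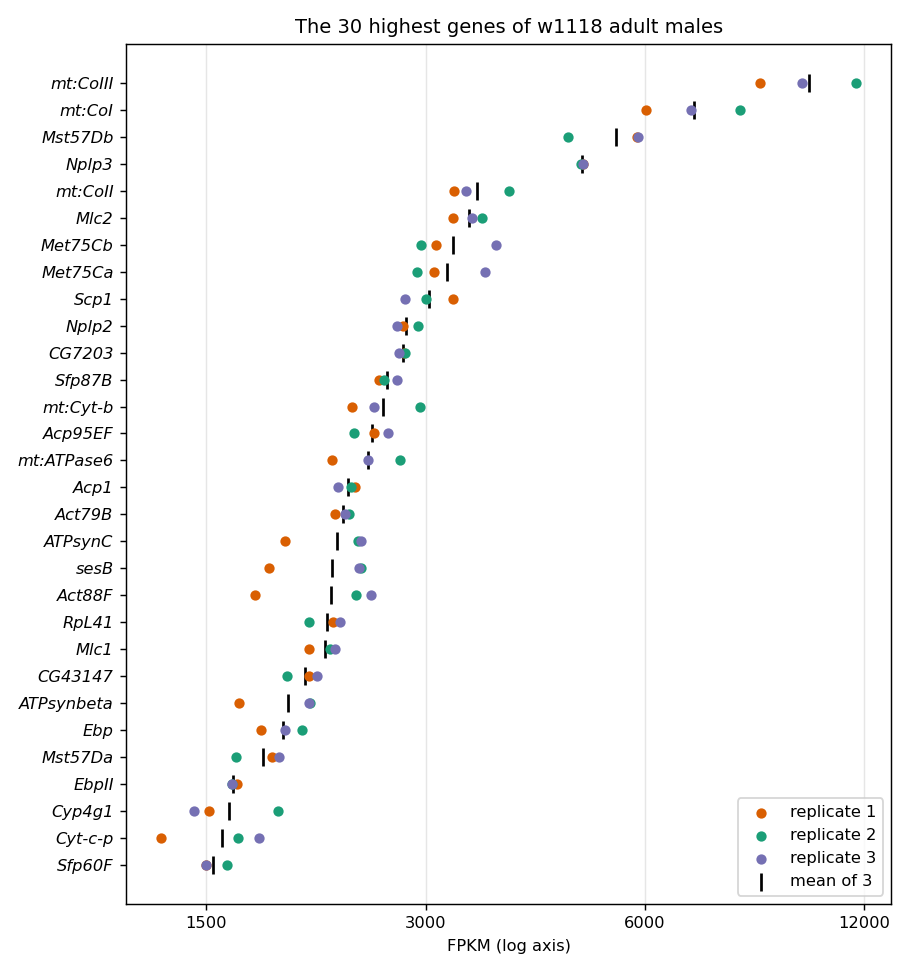
Level of the 30 genes with the highest mean FPKM in *w1118* adult males (log axis); coloured points are the 3 libraries and the black bar is their mean. The order runs from *mt:CoIII*, with a mean of 10059 FPKM, to *Sfp60F*, with 1534 FPKM, and neighbouring genes overlap over much of it.

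Genes of energy metabolism and translation were among the most abundant. Messenger RNAs of the mitochondrial genome, which encodes core subunits of the respiratory chain, took 4.86%, 6.30% and 5.41% in replicates 1, 2 and 3. Their FPKM values were very unequal. The cytochrome oxidase genes *mt:CoI*, *mt:CoII* and *mt:CoIII*, *mt:Cyt-b* and *mt:ATPase6* each had at least 2229 FPKM in every library, *mt:ND1* averaged 430 ± 19.1 FPKM and *mt:ND5* averaged 151 ± 18.3 FPKM. *mt:ND2* (0.516, 0.147 and 0.198 FPKM), *mt:ND6* (0.144, 0.0566 and 0.268 FPKM) and *mt:ND4L*, listed at 0 in every library, were under the threshold. *mt:ATPase8*, which overlaps *mt:ATPase6*, had 2.85, 5.01 and 3.52 FPKM, and reads from their overlap cannot be told apart. Whether these low mitochondrial values stand for little RNA or for the way reads were assigned to genes was not tested.

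All 78 nuclear genes of oxidative phosphorylation passed 1 FPKM, with a median of 203 FPKM and 4.86% ± 0.455 of the summed FPKM. The highest were *ATPsynC* and *ATPsynbeta*, subunits of the ATP synthase, at 2265 ± 294 and 1940 ± 239 FPKM. The complex I subunit *ND-MLRQ* had 1094 ± 62.4 FPKM and the cytochrome oxidase subunit *COX5A* had 818 ± 98.2 FPKM. All 87 cytosolic ribosomal protein genes passed, with a median of 375 FPKM and 7.24%, 7.01% and 7.45% of the summed FPKM, the largest share of any list. *RpL41* led them at 2200 ± 110 FPKM, followed by *RpS27A* (991 ± 30.6) and *RpL23* (902 ± 54.2 FPKM). The 7 translation elongation genes lay between 111 and 1259 FPKM, with *eEF1alpha1* on top. Glycolysis, which feeds flight, had all 12 genes above 10 FPKM and a median of 332 FPKM. *Gapdh1* had 915, 1253 and 1278 FPKM, *Gapdh2* had 609 ± 58.2 FPKM and *Ald1*, the aldolase, had 583 ± 96.5 FPKM. *Ldh*, lactate dehydrogenase, was the lowest of them at 17.7 ± 0.901 FPKM. Of the 12, 11 were lowest in replicate 1, as were 55 of the 78 oxidative phosphorylation genes and all 10 mitochondrially encoded genes above the threshold, against 21.1% of all genes described.

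Genes of the male accessory gland made up 4.99%, 4.61% and 5.02% of the summed FPKM. All 55 listed genes that were found passed 1 FPKM, their median was 106.6 FPKM, and 29 of them reached 100 FPKM, against 3.55% of all features. After *Mst57Db*, the highest were the seminal fluid protein gene *Sfp87B* (2592, 2630 and 2743 FPKM), *Acp95EF* (2548, 2395 and 2666 FPKM) and *Mst57Da* (1844, 1649 and 1886 FPKM). The lowest member had 6.60 FPKM. The ejaculatory duct and bulb list had a median of 608 FPKM over 7 genes, the highest of all lists over the genes found. Over genes of at least 1 FPKM alone, the mitochondrially encoded list was higher, at 1465 FPKM. *Ebp* and *EbpII*, which encode proteins of the ejaculatory bulb, had 1914 ± 122 and 1634 ± 15.1 FPKM. *Dup99B*, a peptide of the ejaculatory duct that is transferred at mating, had 1254 ± 137 FPKM, and *EbpIII* had 608 ± 4.70 FPKM.

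Genes of the testis were taken by stage of spermatogenesis. In the early germline and gonad soma list, 7 of 13 genes passed 1 FPKM (53.8%), close to the 59.8% of all features. The median was 1.35 FPKM and the highest was *bgcn* at 6.74 ± 0.735 FPKM. *bam*, the switch from division to differentiation, had 0.632, 0.484 and 0.663 FPKM, *piwi* had 0.477, 0.539 and 0.558 FPKM and *nos* had 0.344, 0.371 and 0.315 FPKM. These 3 were under the threshold in every library. All 17 spermatocyte regulators passed, with a median of 6.33 FPKM. *fest* was highest at 138 ± 10.6 FPKM, followed by *bol*, an RNA-binding protein needed for meiosis, at 51.2 ± 4.19 FPKM, *Taf12L*, a testis TAF, at 20.6 ± 1.48 FPKM and *twe*, the meiotic Cdc25 phosphatase, at 16.7 ± 1.24 FPKM. The subunits of the testis meiotic arrest complex were lower, with *topi* at 6.33 ± 0.191, *aly* at 2.42 ± 0.217, *tomb* at 1.58 ± 0.286 and *comr* at 1.24 ± 0.0636 FPKM. All 46 spermatid and sperm genes passed, and their median of 88.1 FPKM was over 10 times that of the regulators. *S-Lap1*, a sperm leucyl aminopeptidase, had 602, 560 and 547 FPKM, *ocn* had 574, 536 and 491 FPKM, *loopin-1* had 533, 468 and 471 FPKM and *S-Lap4* had 496, 436 and 422 FPKM. The proteins that pack sperm chromatin spanned a wide range, from *Mst77F* (319, 313 and 299 FPKM) and *ProtB* (120, 115 and 107.2 FPKM) to the transition protein *Tpl94D* (3.51, 2.77 and 3.35 FPKM). Of the 46 genes, 45 were highest in replicate 1, by a median of 1.12 times the mean of the other libraries, against 55% of all genes described and a median ratio of 1.06.

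The Y chromosome, whose genes act in spermatogenesis, had 26 of its 94 features above 1 FPKM and 0.0585% of the summed FPKM. Of the 12 listed fertility genes, 10 passed. *ARY* was highest at 10.8, 9.57 and 8.64 FPKM, followed by *Pp1-Y2* (7.17, 7.31 and 6.24 FPKM), *CCY* (6.03, 4.33 and 4.04 FPKM) and *FDY* (3.90, 3.77 and 3.56 FPKM). The dynein heavy chain genes *kl-5* and *kl-3* were near the threshold, at 1.29 ± 0.437 and 1.18 ± 0.452 FPKM, and *kl-2* (0.912, 0.577 and 0.454 FPKM) and *PRY* (0.642, 0.715 and 0.627 FPKM) were under it. The highest Y features were *CG45765* at 52.7 ± 0.943 FPKM, *CG45764* at 30.5 ± 1.18 FPKM and *Mst77Y-7* at 28.09 ± 1.72 FPKM. *Mst77Y-7* is one of several near-identical copies on the Y chromosome, among which reads cannot be placed with certainty.

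**Figure D2:**
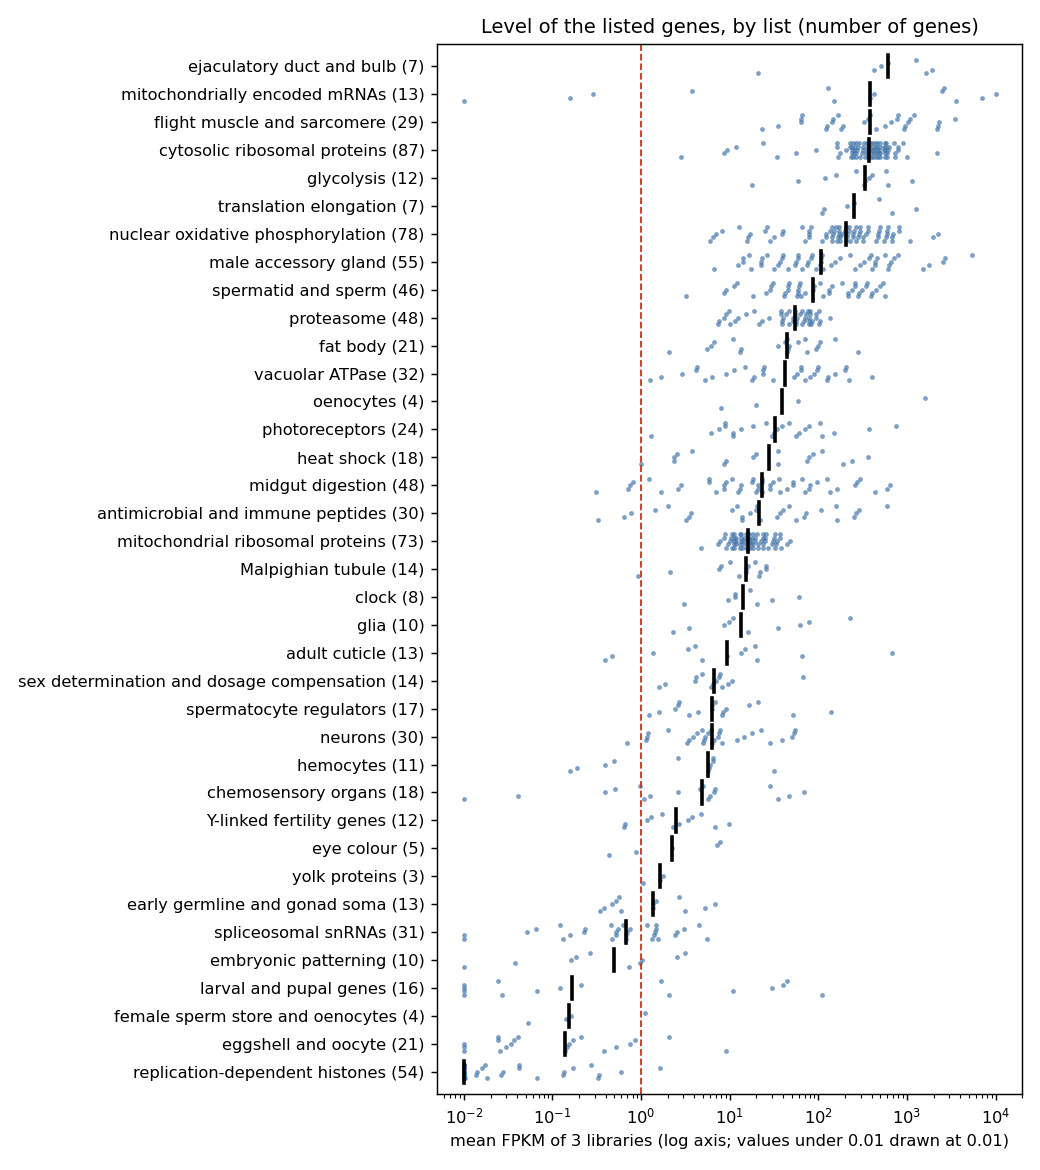
Mean FPKM of each listed gene over the 3 *w1118* libraries (log axis, values under 0.01 drawn at 0.01), by list and ordered by the list's median (black bar), with the number of genes in brackets. The dashed line marks 1 FPKM; ejaculatory duct and bulb genes have the highest median over all genes found, 608 FPKM (over genes past the line it is that of mitochondrially encoded mRNAs, 1465 FPKM), and eggshell genes and replication-dependent histones lie almost wholly below the line.

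Muscle genes came next to those of the accessory gland in their share of the summed FPKM among the tissue lists. FPKM allows for length, and the median leading transcript had 1595 bases in the muscle list and 456 in the accessory gland list. The order by FPKM is therefore not one by RNA mass or reads. The 29 genes found all passed 1 FPKM, with a median of 378 FPKM and 3.98%, 4.49% and 4.49% of the summed FPKM. The 6 conventional actin genes differed widely. *Act79B*, an actin of tubular muscles, had 2254, 2354 and 2323 FPKM, and *Act88F*, the actin of the indirect flight muscles, had 1749, 2405 and 2525 FPKM. *Act57B* had 1082 ± 27.6, *Act87E* 566 ± 18.0, the cytoplasmic *Act5C* 291 ± 9.73 and *Act42A* 130 ± 3.35 FPKM. *Act88F* was the only one of the 6 to fall more than 20% lower in replicate 1 than in either other library. The thick filament protein flightin, encoded by *fln*, had 724, 1049 and 1087 FPKM, in the same order as *Act88F*. *Mhc*, the muscle myosin heavy chain, had 1025 ± 89.2 FPKM, and *up*, which encodes troponin T, had 1209 ± 54.3 FPKM. Of the 29 genes, 24 were lowest in replicate 1, against 21.1% of all genes described.

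Neuronal genes were present but low, whereas the glial and photoreceptor lists had higher medians, of 13.3 and 32.7 FPKM. Of 30 neuronal genes 29 passed 1 FPKM, with a median of 6.23 FPKM and 0.0803% of the summed FPKM. *Gad1*, which makes GABA, had 57.6, 50.5 and 53.9 FPKM, the synaptic vesicle protein *nSyb* had 56.0, 49.6 and 53.3 FPKM, and *ple*, the tyrosine hydroxylase that is also used in cuticle, had 47.6, 53.6 and 51.3 FPKM. *Snap25* had 39.3 ± 2.77 FPKM. *Tdc2*, which makes tyramine, was the only one under 1 FPKM, at 0.688 ± 0.0418. Of the 29 that passed, 24 were highest in replicate 1, against 55% of all genes described. Their median ratio of replicate 1 to the mean of the other libraries was 1.25, against 1.06 over all genes described. All 10 glial genes passed, from *repo*, the glial transcription factor, at 2.29 ± 0.0773 FPKM to *Gs2*, a glutamine synthetase, at 226 ± 11.8 FPKM. All 24 photoreceptor genes passed and took 0.420% ± 0.0157 of the summed FPKM. *ninaE*, the main rhodopsin, had 720, 737 and 792 FPKM, its arrestins *Arr2* and *Arr1* had 369 ± 18.3 and 149 ± 3.05 FPKM, and the myosin *ninaC* had 109 ± 6.45 FPKM. Of 18 chemosensory genes 13 passed (72.2%), against 59.8% of all features. *Obp19d*, an odorant-binding protein, had 54.5, 67.7 and 82.0 FPKM, whereas *Orco*, the common odorant co-receptor, had 1.19, 0.607 and 1.12 FPKM and *Gr5a*, a sugar receptor, was listed at 0 in every library. All 8 clock genes passed. *tim* had 60.6, 60.1 and 59.3 FPKM and *per*, its partner, had 2.83, 2.82 and 3.52 FPKM, and the hour at which the flies were collected was not given in the sources used here.

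In the gut, 44 of 48 digestion genes passed 1 FPKM, and they took 0.681%, 0.849% and 0.878% of the summed FPKM. The serine proteases *Jon65Aiii* (573, 647 and 713 FPKM), *alphaTry* (486, 649 and 673 FPKM) and *Jon65Aiv* (349, 459 and 510 FPKM) led them. Of the 44, 35 were lowest in replicate 1, against 21.1% of all genes described. *Amy-d* and *Amy-p*, near-identical amylase genes, had 259 ± 13.1 and 162 ± 11.5 FPKM. *lab*, the homeobox gene of the copper cell region, had 0.807 ± 0.0998 FPKM. All 21 fat body genes passed, with a median of 44.1 FPKM. *Desat1*, a fatty acid desaturase, had 281 ± 25.0 FPKM, *Sodh-1*, a sorbitol dehydrogenase, 153 ± 5.89 FPKM, *tobi*, a glucosidase gene, 105 ± 22.3 FPKM and *apolpp*, the lipid carrier of the haemolymph, 98.1 ± 6.50 FPKM. In the Malpighian tubule list 13 of 14 genes passed, with the highest mean at 25.8 FPKM. They were led by the transporter *Oatp58Dc* (25.8 ± 0.575), the potassium channel *Irk2* (25.4 ± 0.763) and the urate oxidase *Uro* (30.2, 19.3 and 16.7 FPKM). The leucokinin receptor *Lkr* was under the threshold at 0.916 ± 0.101 FPKM. In oenocytes, *Cyp4g1* stood far above *spidey* (58.3 ± 3.46 FPKM), *FASN3* (19.8 ± 6.01 FPKM) and *FarO* (7.93 ± 1.40 FPKM). Hemocyte genes were low, with the scavenger receptor *crq* at 31.7 ± 2.04, *Pxn* at 6.55 ± 0.164 and *Hml* at 5.93 ± 0.367 FPKM, while the crystal cell genes *PPO2* (0.501 ± 0.00777) and *PPO1* (0.156 ± 0.0775) were under the threshold. In the cuticle list, *Acp65Aa*, an adult cuticle protein, had 681 ± 17.1 FPKM, about 10 times the next listed gene, *Cpr62Bb*, at 66.2 ± 2.09 FPKM. *Acp1*, an adult cuticle protein gene that was not on the list, was higher than both, at 2348 ± 66.8 FPKM.

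Among genes of the other sex and of other stages, most eggshell and embryonic patterning genes were under 1 FPKM. The yolk protein genes and part of the larval and pupal list passed. Only 2 of 21 eggshell and oocyte genes passed 1 FPKM, against 59.8% of all features, and the median was 0.137 FPKM. The first was *grk*, the ligand that sets the axes of the oocyte, with 9.59, 9.58 and 8.21 FPKM, and the second was *Cp15*, with 3.14, 1.15 and 1.88 FPKM. The yolk protein genes *Yp1* (0.559, 1.61 and 2.76 FPKM), *Yp2* (0.371, 1.01 and 1.73 FPKM) and *Yp3* (1.25, 1.74 and 2.34 FPKM) passed narrowly and were all lowest in replicate 1. Of 16 larval and pupal genes, 7 passed (43.8%), against 59.8% of all features. The larval storage protein *Lsp2* had 93.0, 110.0 and 128 FPKM and *Fbp1*, a receptor for storage proteins, had 43.7 ± 1.30 FPKM, while the salivary glue genes *Sgs4*, *Sgs7* and *Sgs8* were listed at 0 in every library. Of 10 embryonic patterning genes 3 passed (30%, against the same 59.8%), with *odd* highest at 3.13 ± 0.233 FPKM. The strain's marker *w*, the *white* transporter of eye pigment precursors, had 0.838, 0.786 and 0.986 FPKM, under the threshold in every library, and *st*, its partner in the transporter, had 7.26 ± 0.360 FPKM. RNAs without a poly(A) tail were also low in these oligo(dT)-selected libraries. Of 54 replication-dependent histone genes 1 passed, *His2B:CG33868* at 1.62 ± 0.0575 FPKM, and 19 were listed at 0 in every library. Of 31 spliceosomal snRNA genes 12 passed, with *snRNA:U2:34ABb* highest at 5.54 ± 0.350 FPKM.

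Genes of the X chromosome had lower levels than autosomal ones among those described. The X held 1929 of the genes above 1 FPKM and the arms 2L, 2R, 3L and 3R held 10475. The median level of X genes was 8.04, 7.59 and 7.65 FPKM in replicates 1, 2 and 3, against 10.2, 9.57 and 9.71 FPKM for the autosomal arms. The ratio was 0.791, 0.793 and 0.788, a mean of 0.791 ± 0.00244 (SD, n = 3). This SD describes how the libraries repeat over the same genes and not the spread among genes or arms. By mean level, the median was 7.75 FPKM on the X and between 9.32 and 10.3 FPKM on the autosomal arms. Leaving out the testis, accessory gland and ejaculatory duct lists gave 0.800 ± 0.00173. The share of features that passed was close to even, at 73.0% of X genes with a gene identifier, against 70.3% to 74.7% on the autosomal arms. High genes were fewer on the X, where 80 genes (4.15%) reached 100 FPKM, against 5.94% to 6.48% on the autosomal arms. On the reproductive lists without that of Y-linked genes, 3 of the 132 genes described were X-linked (2.27%), against 15.3% of all genes described. None of the 55 accessory gland or 17 spermatocyte genes was. The 48 digestion genes held no X-linked gene either, whereas 14 of 87 ribosomal protein genes and 7 of 30 neuronal genes were X-linked. On the small chromosome 4, 92 of 112 genes with a gene identifier passed (82.1%), but over all its features only 148 of 569 did (26.0%). The median of these 148 was 5.65 FPKM.

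**Figure D3:**
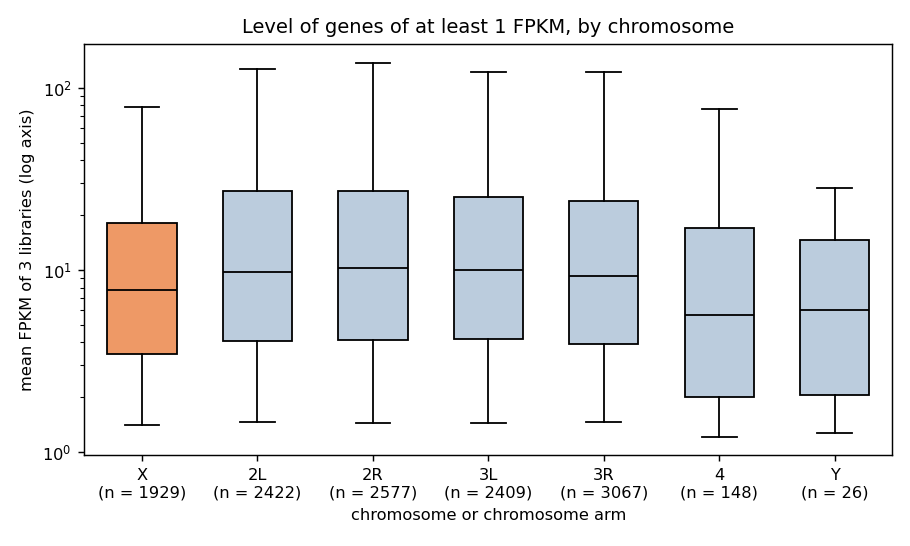
Mean FPKM of genes of at least 1 FPKM by chromosome or arm (log axis); boxes span the quartiles, the line is the median and whiskers reach the 5th and 95th percentiles. The X chromosome (orange) has a median of 7.75 FPKM, below those of the 4 large autosomal arms, which lie between 9.32 and 10.3 FPKM.

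Genes of dosage compensation were all above the threshold. *lncRNA:roX1* had 72.2, 64.7 and 64.2 FPKM and *lncRNA:roX2* had 8.52, 7.81 and 8.03 FPKM, so the first of these RNAs was about 8 times as high in each library. Among the proteins of the complex, the helicase *mle* had 9.53 ± 0.527, *msl-2* 6.40 ± 0.255, *msl-3* 6.19 ± 0.0871, *msl-1* 4.05 ± 0.138 and the acetyltransferase *mof* 1.86 ± 0.0722 FPKM. Among the splicing regulators of the sex pathway, the gene values were 10.5 ± 0.482 for *tra2*, 7.53 ± 0.729 for *Sxl* and 6.95 ± 0.927 FPKM for *tra*. Of the transcription factors they control, *dsx* had 7.71 ± 0.611 and *fru* had 1.60 ± 0.0955 FPKM, and the cofactors *her* and *ix* had 4.91 ± 0.0674 and 4.17 ± 0.303 FPKM. Transcript values could add up to more than these gene values. The highest transcripts averaged 5.37 and 3.55 FPKM in *Sxl*, and 1.47 and 1.04 FPKM in *fru*. The order of these genes therefore depends on the measure.

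Several proteins of general function have a second gene, in many cases known for its use in the male germline, and 12 such pairs were set side by side after their values were seen. The first gene was higher than the second in every library in 11 of 12 pairs. *Cyt-c-p*, the main cytochrome c, was 12.02 ± 2.64 times *Cyt-c-d* (1578 and 133 FPKM), *Pglym78* was 5.34 ± 1.29 times *Pglym87*, and *ATPsynbeta* was 324 ± 50.9 times *ATPsynbetaL*. Among proteasome subunits, *Prosalpha4* was 5.12 ± 0.103 times *Prosalpha4T1* and *Prosalpha3* was 9.41 ± 0.619 times *Prosalpha3T*. Among ribosomal proteins, *RpL22* was 12.6 ± 1.11 times *RpL22-like* and *RpS28b* was 151 ± 15.9 times *RpS28a*. The exception was β-tubulin, where *betaTub56D* had 205, 212 and 221 FPKM and the testis gene *betaTub85D* had 371, 337 and 338 FPKM. In 6 of the 12 pairs the first gene was X-linked and the second autosomal, and 15.3% of all genes described were X-linked. The pairs and the order within them were chosen by hand, so neither count stands for paralogs in general.

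Alternative transcripts were examined next. The 12593 genes had 28072 annotated transcripts, and 6480 of them (51.5%) had 2 or more. In 2 of these genes the isoform FPKM summed to 0 in a library, and the other 6478 were described. The leading transcript took a median of 73.1% of a gene's isoform FPKM, with quartiles of 56.6% and 89.7%. In 5092 genes (78.6%) the same transcript led in all 3 libraries, in 1301 the libraries had 2 leads and in 85 each library had its own. The lead chosen from the other libraries was also the lead in the one left out in 86.4% to 86.8% of genes. In 4483 genes (69.2%) the lead held at least 50% in each library, in 2430 (37.5%) at least 75%, and in 340 (5.25%) at least 99%. The lead was the longest transcript in 43.0% of genes and the shortest in 36.4%. Stability rose with level, from a shared lead in 69.7% of genes from 1 to under 3 FPKM to 92.9% of those of at least 100 FPKM, and fell with the number of transcripts, from 83.2% of genes with 2 transcripts to 56.4% of those with 10 or more. *Dscam1*, a neural cell surface receptor, had the most annotated transcripts, 70, and FBtr0334801 led in it with 41.2%, 40.2% and 45.1%. In *para*, the voltage-gated sodium channel, by contrast, FBtr0342746 held 98.9%, 99.6% and 99.9% among 25 transcripts.

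**Figure D4:**
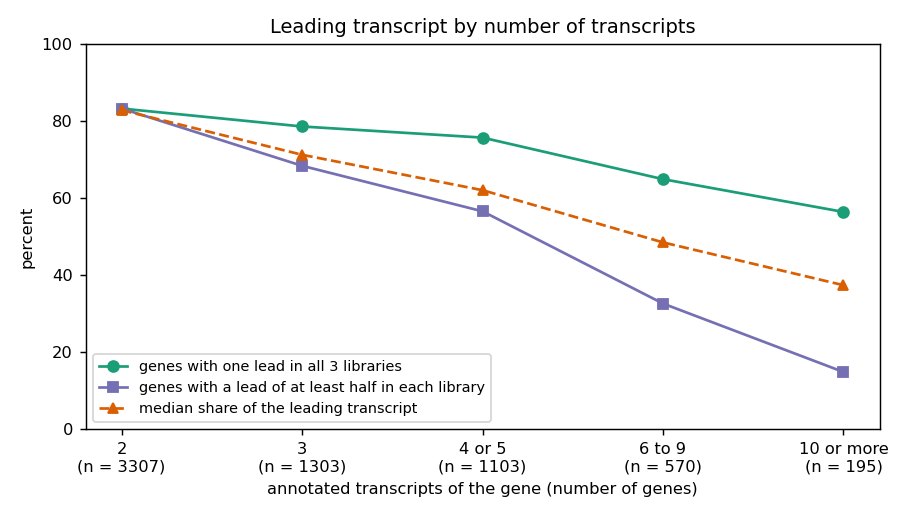
Leading transcripts of the 6478 genes with 2 or more annotated transcripts, by number of transcripts (number of genes in brackets). The share of genes with one lead in all 3 libraries (circles) falls to 56.4%, the share with a lead of at least 50% in each library (squares) to 14.9% and the median share of the lead (triangles) to 37.4% at 10 or more transcripts.

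Tissues differed in how their genes were built. Of 29 muscle genes 26 had 2 or more transcripts, with a median of 5 transcripts and a leading share of 60.6%. Neuronal genes were also rich in transcripts, in 26 of 29 genes, and their leading transcripts were long, with medians of 6331 bases and 9 exons. Spermatid and sperm genes had 2 or more transcripts in only 12 of 46 genes (26.1%), and their leading transcripts had medians of 1125 bases and 2 exons. Accessory gland genes were the shortest of the tissue lists, with a median of 456 bases, and 23 of 55 had 2 or more transcripts. Ribosomal protein genes had 2 or more in 68 of 87 genes, but the lead took a median of 91.6%. Over all 12593 genes, 51.5% had 2 or more transcripts and the median leading transcript had 1605 bases and 3 exons.

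Among genes of at least 10 FPKM whose lead differed between libraries, the highest was *Mhc*, with 21 transcripts. In it FBtr0080905 held 31.3%, 21.3% and 31.3% of the isoform FPKM in replicates 1, 2 and 3 and FBtr0080907, of equal length and exon number, held 22.9%, 30.1% and 23.0%. In *TpnC4*, the troponin C of flight muscle, FBtr0302019 held 48.9%, 55.2% and 46.7%, against FBtr0086075 for the remainder. The other 8 were *Ubi-p63E*, *RpS18*, *RpL7A*, *RpL15*, *RpL9*, *RpS7*, *cype* and *RpL18*, of which 6 encode ribosomal proteins. *RpL18* varied most among these, with FBtr0345036 at 23.8%, 49.3% and 91.0% and FBtr0076892 at 75.8%, 50.3% and 8.82%. These transcripts have 694 bases in 3 exons and 724 bases in 4 exons, and the split of reads between transcripts of one gene is an estimate. The giant muscle proteins behaved likewise, as was noted after their values were seen. In *bt*, which encodes the muscle protein projectin, FBtr0334482 held 5.91%, 53.4% and 53.4%, against 72.0%, 3.72% and 1.08% for FBtr0089793. In *sls*, the gene of the titin-like sallimus, FBtr0072848 had the highest mean share and held 39.5%, 36.9% and 44.0%. FBtr0332678 held 40.2%, 0.00948% and 0%, and FBtr0332683 held 2.53%, 42.6% and 18.2%. Replicate 1 departed from the other libraries in *bt*, whereas each library had its own lead in *sls*.

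Some genes had first and second transcripts of nearly equal mean share, the measure by which the 10 closest pairs were chosen. In *parvin*, FBtr0346042 held 49.9%, 50.3% and 50.0%. In *CG6262*, FBtr0087152 held 45.6%, 47.3% and 46.2% and FBtr0087153 held 46.8%, 46.2% and 46.03%. *Act5C* had FBtr0100662 at 32.4%, 29.0% and 34.9% and FBtr0100663 at 31.2%, 31.3% and 33.6%, and *Fmr1*, the fragile X gene, had FBtr0082198 at 43.9% and FBtr0308123 at 43.8% on average. The other genes chosen this way were *Rcd1*, *fon*, *RyR*, *Miro*, *galectin* and *sgg*, and in all 10 genes the lead differed between libraries. Close means did not always stand for even shares in each library. In *Rcd1*, the first transcript held 37.2%, 15.7% and 8.96% and the second 5.69%, 33.8% and 22.2%.

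In the sex determination pathway, splicing is known to differ between the sexes. *tra* makes a shorter coding mRNA in females, where SXL shifts the splice site, and a longer one in both sexes. The longer transcript FBtr0100244 (3L:16590059-16591050, 862 bases) held 96.0%, 98.97% and 100% of the *tra* isoform FPKM in these males. The shorter FBtr0075364, which lacks 175 bases, had 0.317, 0.0626 and 0 FPKM. *dsx* joins a female exon with its own end in females and skips it for downstream exons in males. The 3 transcripts of 5 exons that reach the downstream end at 3R:7924323 together held 53.7%, 64.5% and 64.0%, and 8.44 ± 0.719 FPKM. The 2 transcripts of 4 exons that end at 3R:7934482 held 0.359%, 0.589% and 0%. A further 4-exon transcript of 6941 bases, FBtr0339710, which ends at 3R:7931168, held 45.9%, 34.9% and 36.0%. FBtr0330073, one of the 5-exon transcripts, held 29.6%, 35.9% and 38.0%. The first of these was higher in replicate 1 and the second in replicates 2 and 3, so no lead can be given for *dsx*. FBtr0339710 is 3314 bases longer than FBtr0081760, a transcript with the same start and number of exons that ends at 3R:7934482. The difference equals the 3314 bases between their ends. The same exons with a longer last exon would give these lengths, but exon structures were not read. Female-type *dsx* can therefore not be called absent, and the split between male and female forms was not determined. Isoform FPKM do not have to add up to the gene value, which for *dsx* was 7.71 FPKM.

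In *msl-2*, SXL is known to keep an intron of the 5′ UTR in females. The transcript of 3 exons, FBtr0077570, held 59.1%, 32.6% and 74.5%, and that of 2 exons, FBtr0077571, which is 133 bases longer between the same ends, held 40.9%, 67.4% and 25.5%. The order reversed in replicate 2, so no lead can be given. *msl-1* also changed its lead, with FBtr0081130 at 79.7%, 88.4% and 44.8%. In *Sxl*, with 24 transcripts, FBtr0336727 led in every library with 26.0%, 29.7% and 31.3%, ahead of FBtr0331258 with 22.9%, 18.1% and 15.2%. *fru* had no stable lead, and its highest transcript FBtr0083651 held 14.2%, 27.4% and 21.9%. FBtr0070634 led in *lncRNA:roX1* with 72.1%, 60.0% and 70.6%, and FBtr0073515 in *lncRNA:roX2* with 55.2%, 64.3% and 58.7%. Leads were also stable in *mle* (FBtr0100576, 62.0%, 59.8% and 67.9%) and *her* (FBtr0080883, 66.3%, 80.9% and 72.7%). In *tra2*, FBtr0089616 held 43.6%, 57.3% and 44.2%, while *mof*, *msl-3* and *ix* have 1 annotated transcript.

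The libraries resembled each other closely but not fully. Pearson correlations of log2(FPKM + 1) across the 12593 genes, which are not independent replicates, were 0.991, 0.992 and 0.993. In replicate 1, 42 genes (0.334%) were at least 2 times as high as in both other libraries, against 10 in replicate 2 and 14 in replicate 3. Of these 42 genes, 12 were among the 27 antimicrobial and immune peptide genes above 1 FPKM. These peptides are made by the fat body and other tissues after infection or stress. *Dro*, drosocin, had 40.7, 3.14 and 7.04 FPKM in replicates 1, 2 and 3, *DptB*, a diptericin, had 47.4, 3.49 and 8.55 FPKM, *DptA* had 69.2, 3.89 and 29.9 FPKM and *Mtk*, metchnikowin, had 79.5, 10.6 and 21.995 FPKM. Without replicate 1 these averaged 5.09, 6.02, 16.9 and 16.3 FPKM. *AttC* (28.3, 7.24 and 5.68 FPKM) and *BomBc1* (24.3, 2.94 and 9.20 FPKM) were also highest there, as was *Drs*, drosomycin, with 265, 84.4 and 124 FPKM. *TotA*, a stress-induced humoral factor, had 121, 53.3 and 45.7 FPKM. Some peptides varied less, among them *BomS6*, the highest, with 651, 596 and 533 FPKM, *CecA1* with 42.3, 36.6 and 41.5 FPKM and *AttD* with 11.8, 13.6 and 15.4 FPKM. The median ratio of replicate 1 to the mean of replicates 2 and 3 was 1.06 over all genes described. It was 1.63 over the 27 peptide genes and 1.25 over neuronal genes. Lower ratios were those of digestion genes (0.735), glycolysis (0.802) and nuclear oxidative phosphorylation (0.871). What set replicate 1 apart was not tested.

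**Figure D5:**
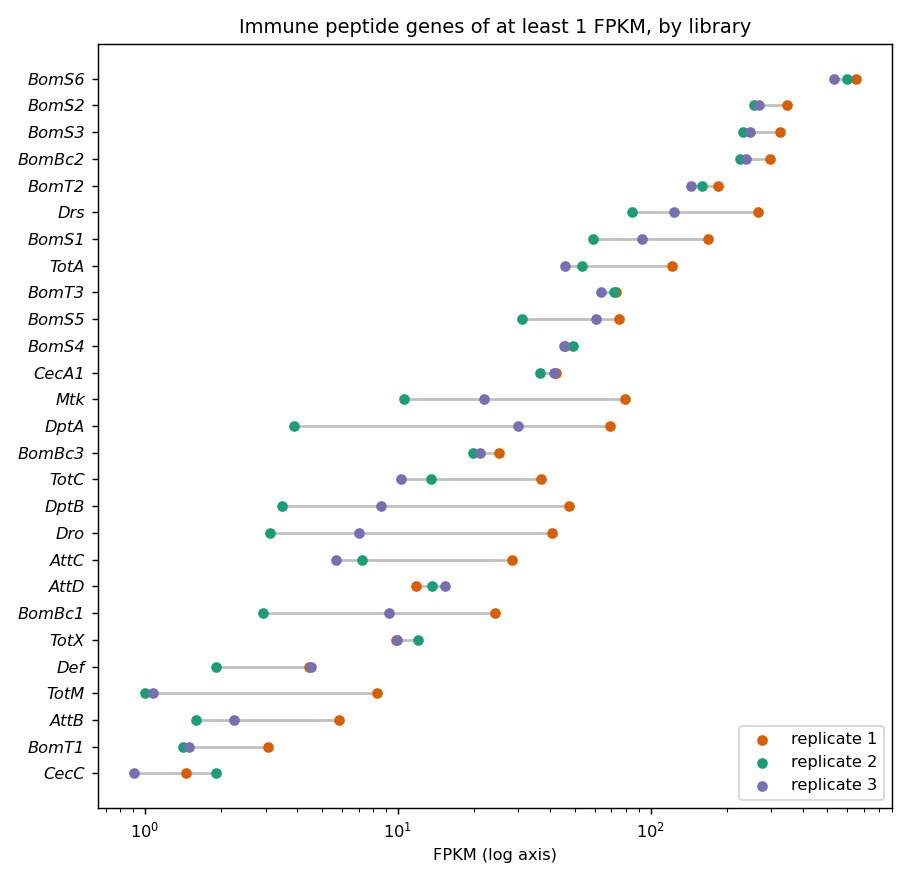
FPKM of the 27 antimicrobial and immune peptide genes of at least 1 FPKM in each *w1118* library (log axis), ordered by mean; the grey line joins the lowest and highest library. Replicate 1 (orange) is the highest library in 22 of the 27 genes, against 55% of all genes described.

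*CG9130*, which is on no list, also varied widely, with 148, 28.2 and 14.3 FPKM. The remaining genes of the largest coefficient of variation were listed at 0 in replicate 2 only. *CG45493* had 37.8, 0 and 30.2 FPKM, *CG45494* had 23.7, 0 and 19.1 FPKM and *Jon65Aii*, a midgut protease, had 18.5, 0 and 21.1 FPKM. *Ppm1*, added after its values were seen, had 40.2, 0 and 35.3 FPKM. A value of 0 beside such levels may be an estimate that failed, so no mean is given. *CG45493* and *CG45494* are neighbours on the X chromosome, and the split of reads between them is uncertain. In all, 16 of the 12593 genes were listed at 0 in 1 or 2 libraries, and 12226 reached 1 FPKM in each.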

How the data were processed

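Poly(A) RNA of about 50 adult *w1118* males per library was selected with oligo(dT), fragmented and sequenced as stranded paired-end libraries in 3 biological replicates. Per the labels and the study's methods, reads were trimmed with fastp, checked with FastQC and aligned with HISAT2 to a *D. melanogaster* reference, whose assembly name is not given in the sources used here. The deposited FPKM of genes and transcripts were made by the authors with StringTie, and the deposited isoform table also holds the coverage, the mean read depth per base of a transcript. Other per-library columns (12 for genes and 24 for transcripts) were left aside.

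Depth in aligned gigabases is the ratio of coverage to FPKM, constant within a library. Genes averaging 1 FPKM or more were kept. A share is a transcript's FPKM over the sum of its gene's transcripts, averaged over libraries to choose the lead. Of 943 entries in 37 lists of genes, 936 matched a symbol; those not found were *CG1652*, *CG1656*, *mf*, *KAR*, *Sgs5*, *Eig71Ea* and *Eig71Ed*. The lists and members were chosen with earlier results of these data known. Named were the 30 highest genes, up to 4 highest genes per list and markers under 1 FPKM, *w*, the 10 genes each of at least 10 FPKM with the largest coefficient of variation, with a lead that differed between libraries and with the closest first and second transcript, and all sex determination genes; others were chosen after their values were seen, among them the paralog pairs and *Mst77F*, *ProtB* and *Tpl94D*. RefSeq symbols come from *D. melanogaster* Release 6. The scripts were tested on simulated data. Alternatives were other thresholds, gene sets, pseudocounts and leaving out each library. Python 3.11.15, pandas 2.3.3, NumPy 2.4.6 and matplotlib 3.10.9 were used.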

Additional observations from a re-analysis of the deposited data

How the results depend on the processing

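The number of genes described lay between 11263 and 13733 under thresholds of 2 and 0.5 FPKM, was 12226 with 1 FPKM in each library and 12660 from summed isoform FPKM. The share of the 100 highest genes, 30.0%, was 26.8% without mitochondrially encoded genes, 31.6% without ribosomal protein genes, and 9.63% for the 10 highest genes. The X to autosome ratio, 0.791, was 0.816 at a threshold of 0.5 FPKM and 0.831 at 5 FPKM, 0.800 without the reproductive lists, and 0.800 and 0.785 from means of log2(FPKM + 1) and log2(FPKM + 0.1), so it stayed below 1 under each. The count of genes with a lead of at least 50% in each library fell to 2430 at 75%. The median coefficient of variation ranged from 4.75% to 6.93% when each library was left out in turn, and was lowest without replicate 1. Without a library the counts of stable leads rose to between 5507 and 5554, since fewer libraries had to agree. Of 37 lists, 29 moved in their share of the summed FPKM by more than the spread between libraries without the 10 highest genes. Those genes held 9.63% of the total, so the share of a list that holds none of them rises by arithmetic once they are left out. The count of 29 therefore depends on how small each list's spread was and says nothing further about the lists. Without genes under 1 FPKM, 14 lists moved in their median by more than the spread between libraries. When each library was left out, 103 list medians stayed within that spread and 8 did not. No paired analysis was possible because only one group is described and no comparison between groups was made. FPKM keep no read counts, so the counting error of single genes is unknown.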

Other observations

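All 73 mitochondrial ribosomal protein genes lay between 4.68 and 47.7 FPKM, with a median of 16.0 FPKM and 0.283% ± 0.00112 of the summed FPKM, and the median of cytosolic ribosomal protein genes was 375 FPKM. All 48 genes of the proteasome list passed 1 FPKM, with a median of 54.7 FPKM. Of these, 44 were highest in replicate 1, against 55% of all genes described. Their median ratio of replicate 1 to the mean of the other libraries was 1.11, against 1.06 over all genes described. The list was matched by symbol and includes *Prosap*, which is not a proteasome subunit. All 32 vacuolar ATPase genes passed, from 1.25 to 402 FPKM, with *Vha16-1* on top. In the heat shock list 17 of 18 genes passed, led by the constitutive *Hsc70-4* at 360 ± 13.6 FPKM and *Hsp83* at 239 ± 8.25 FPKM, whereas the near-identical inducible genes *Hsp70Aa* and *Hsp70Ab* had 8.69 ± 3.87 and 8.97 ± 4.11 FPKM.

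Long non-coding RNAs were described in 561 of 1864 cases (30.1%), with a median of 2.67 FPKM. Of the 12 that reached 100 FPKM, 8 were X-linked, against 60 of all 561. The highest were *lncRNA:CR42862* (578, 487 and 522 FPKM), *lncRNA:CR44389* (502, 441 and 480 FPKM) and the X-linked *lncRNA:CR32652* (485, 426 and 418 FPKM). Of 3708 annotated transposable element features 171 (4.61%) reached 1 FPKM, and 56 of these, including 7 of the 10 highest, lay on chromosome 4. That chromosome holds 569 annotated features, of which only 112 have a gene identifier. The share of all 3708 elements that lie on it was not determined, so the count cannot be read as an excess. FBti0019430 on arm 3R was highest at 19.5, 19.6 and 19.1 FPKM. Reads of copies of one element, or of a gene that contains the insertion, may have been counted for it.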
